A study of Homo sapiens with 6 samples.

Results

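The genes for 10 integrin subunits of macrophages were followed: ITGA4, ITGA5, ITGAL, ITGAM, ITGAV and ITGAX, which encode alpha chains, and ITGB1, ITGB2, ITGB3 and ITGB5, which encode beta chains. They were taken by name, and all 10 of 10 were among the 17042 genes of the count table. Earlier results of these data were known at that choice, so comparing their counts with all genes is not an independent test. Polyadenylated RNA was sequenced from THP-1, a cell line grown from a human monocytic leukaemia, in 3 knockdown and 3 control libraries. Knockdown cells had been transfected by a lipid reagent, ahead of the cytokine step, with small interfering RNA (siRNA) against RP11-184M15.1, a long noncoding RNA, while control cells were labelled WT. Both groups were treated for 24 hours with PMA at 100 ng/mL, a phorbol ester that turns THP-1 into adherent macrophages, and for another 24 hours with interleukin-4 (IL-4) at 20 ng/mL. What, if anything, the control cells were transfected with is not stated in the labels, and RP11-184M15.1 itself was not analysed here, so the depth of the knockdown is not known from these values. The labels do not call the 3 libraries of a group separate cultures, and p-values therefore measure their spread alone, which may be technical.

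Integrins are receptors for matrix and for other cells, each made of 1 alpha and 1 beta chain that reach the surface only as a pair. The beta chain ITGB2 (CD18) is found on leukocytes and pairs with ITGAL (CD11a), ITGAM (CD11b) or ITGAX (CD11c), while ITGB1 pairs with ITGA4, ITGA5 and many other alpha chains, and ITGAV pairs with ITGB1, ITGB3 or ITGB5. In macrophages these receptors carry out adhesion, migration and the uptake of opsonized or dying cells. Only mRNA was measured here, so the amounts of the surface receptors are not known from these data.

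Promoter sequence from RefSeq (GRCh38.p14, 250 bases before and 50 after the annotated start) was at hand for 6 of the 10 members, ITGA4, ITGA5, ITGAM, ITGAV, ITGB1 and ITGB5, the others being ITGAL, ITGAX, ITGB2 and ITGB3. The 3 stretches of 30 bases below, written 5′ to 3′ on the gene's strand, are shown because they hold motifs of factors that PMA (AP-1), the myeloid lineage (PU.1) and IL-4 (STAT6) are known to act through. Capitals mark the motif.
ITGA5, AP-1, chr12:54419255-54419284, minus strand: tcctccccgcgtTGAGTCAttcgcctctgg
ITGAM, PU.1 core, chr16:31259836-31259865, plus strand: caggaagctgggGAGGAAgggtgggcaggc
ITGAM, STAT6, chr16:31259916-31259945, plus strand: ctccgccctcTTCCTTTGAAtctctgatag

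Both strands were searched, over the first RefSeq promoter listed for each gene, and the printed matches do not overlap a match to another motif searched. The AP-1 motif TGANTCA was found in 1 of the 6 members, ITGA5, and in 7.76% of 27305 promoters. In ITGA5 it began 6 bases before the RefSeq start and 188 bases after the start of the gene in GENCODE 29, so inside the gene as that release annotates it. The PU.1 core GAGGAA was found in 3 of the 6 (ITGAM, ITGAV and ITGB1) and in 27.6% of promoters, and the STAT6 motif TTCNNNNGAA in 1, ITGAM, and in 6.37%. The GC box GGGCGG was found in 4 of the 6 and in 44.6% of promoters, and ITGA4 held none of the 4 motifs. Further RefSeq promoters of ITGAV, ITGB1 and ITGB5 were left out of these counts. Among them, ITGAV and ITGB1 held a STAT6 motif, and ITGB5 held PU.1 cores and GC boxes. A match describes these letters and does not show that a factor binds there.

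Of the 10 integrin subunits, 4 rose in the knockdown libraries and none fell. ITGB3 rose by 32.3%, ITGA5 by 21.2%, ITGAX by 17.6% and ITGA4 by 15.7%, and they were the 4 members with an adjusted p under 0.05 (edgeR's quasi-likelihood test across 13405 genes, Benjamini-Hochberg adjustment). Of all genes tested, 1.22% passed as higher and 1.61% as lower, and of the 5706 genes with at least the mean CPM of ITGB3, the lowest member, 2.17% passed as higher. The number of members that passed was 2 without knockdown replicate 1, knockdown replicate 3 or control replicate 2, 3 without knockdown replicate 2, and 5 without control replicate 3. No member passed as lower in edgeR, DESeq2 or limma-voom, and at an unadjusted p under 0.05, which 6.89% of all genes passed as higher and 8.21% as lower, 8 members were above 0 and 1, ITGAV, below. The log2 fold change was above 0 in 9 of the 10 members, with a median of 0.16, against 49.4% of all genes tested and a median of -0.00. All 3 knockdown libraries lay above all 3 control libraries in 8 members, where 9.61% of all genes did so, and below them in 1 member, where 10.4% of all genes did so. In bulk RNA, more RNA per cell and more cells of a kind cannot be told apart.

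**Figure D1:**
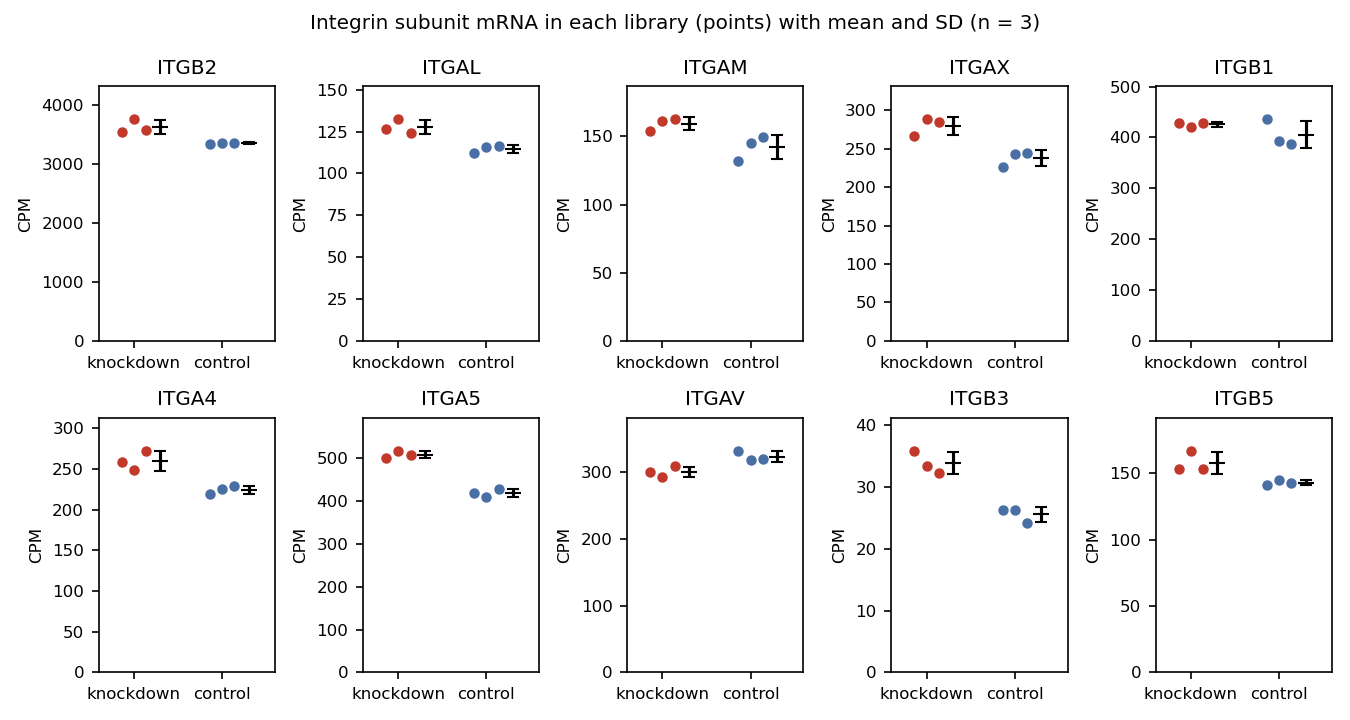
Normalised read count (CPM, y axis from 0, a scale for each gene) of the 10 integrin subunits in the knockdown (red, left) and control (blue, right) libraries, with the mean and SD of each group (n = 3). The groups stand apart in 9 of the 10 panels, and overlap in that of ITGB1, where control replicate 1 reached 436 CPM.

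Levels are given in CPM, read counts scaled to the size of each library, with TMM factors that adjust for library composition. Library totals ran from 12029360 to 14181343 counts in knockdown and from 10450043 to 12113848 in control. ITGB3, the lowest member, had at least 251 counts in each library, and counting error weighs most on its values.

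Among the leukocyte integrins, ITGAX was the member that passed. ITGAX (ENSG00000140678.16, GRCh38 chromosome 16, 31355134 to 31382997, plus strand) encodes CD11c, the alpha chain of complement receptor 4. It had 266, 288 and 285 CPM in the knockdown libraries, against 226, 243 and 245 CPM in the control libraries. The lowest knockdown library was above the highest control library, and the log2 fold change was 0.23 ± 0.05 (SE; edgeR adjusted p = 0.0146). The call was lost without control replicate 2 (adjusted p = 0.0594), knockdown replicate 2 (0.121) or knockdown replicate 3 (0.102), with log2 fold changes from 0.20 to 0.27 over all 6 omissions of 1 library.

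ITGAM (ENSG00000169896.17, chromosome 16, 31259967 to 31332892, plus strand) encodes CD11b, the alpha chain of complement receptor 3, and lies beside ITGAX. It had 154, 161 and 163 CPM in knockdown, against 132, 145 and 150 CPM in control. The groups did not overlap, but the lowest knockdown value was only just above the highest control value, and the log2 fold change of 0.16 ± 0.05 (SE) did not pass (edgeR adjusted p = 0.122). It passed without control replicate 3 (adjusted p = 0.0493, log2 fold change 0.20).

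ITGAL (ENSG00000005844.17, chromosome 16, 30472658 to 30523185, plus strand), which encodes the CD11a chain of LFA-1, the receptor for ICAM molecules, had 127, 132 and 124 CPM in knockdown, against 112, 116 and 116 CPM in control. Its groups did not overlap either, and its log2 fold change was 0.16 ± 0.05 (SE; edgeR adjusted p = 0.103). Their shared beta chain ITGB2 (ENSG00000160255.17, chromosome 21, 44885953 to 44931989, minus strand) had 3553, 3765 and 3586 CPM in knockdown, against 3343, 3367 and 3367 CPM in control. The control libraries of ITGB2 were nearly equal and all below the knockdown libraries, with a log2 fold change of 0.11 ± 0.04 (SE; edgeR adjusted p = 0.178).

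Among the chains of the ITGB1 group, ITGA5 had the smallest p of all 10 members. ITGA5 (ENSG00000161638.10, chromosome 12, 54395261 to 54419460, minus strand) pairs with ITGB1 as the classical fibronectin receptor. It had 501, 518 and 508 CPM in knockdown, against 420, 411 and 429 CPM in control. The gap between the groups was several times the spread within either, with a log2 fold change of 0.28 ± 0.04 (SE; edgeR adjusted p = 0.00138). It was the member that passed in each of the 6 omissions of 1 library, with an adjusted p of at most 0.0225.

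ITGA4 (ENSG00000115232.13, chromosome 2, 181457202 to 181536187, plus strand), the alpha chain of VLA-4, which binds VCAM1 and fibronectin, had 259, 248 and 272 CPM in knockdown, against 219, 226 and 229 CPM in control. All knockdown libraries were above all control libraries, with a log2 fold change of 0.21 ± 0.05 (SE; edgeR adjusted p = 0.0233). The call was lost without knockdown replicate 1 (adjusted p = 0.0971), knockdown replicate 3 (0.162) or control replicate 2 (0.101).

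ITGB1 (ENSG00000150093.18, chromosome 10, 32900319 to 33005792, minus strand), a beta chain of both, had 429, 420 and 428 CPM in knockdown, against 436, 393 and 388 CPM in control. It was the only member whose groups overlapped, with control replicate 1 the highest of all 6 libraries. Its log2 fold change was 0.07 ± 0.05 (SE; edgeR adjusted p = 0.548), and without control replicate 1 it was 0.12 (adjusted p = 0.0769).

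Among the chains of the ITGAV group, ITGB3 had the largest log2 fold change of the 10 members. ITGB3 (ENSG00000259207.7, chromosome 17, 47253846 to 47311816, plus strand) pairs with ITGAV as the vitronectin receptor. Its counts were 442, 476 and 393 in knockdown, against 277, 314 and 251 in control, which is 35.8, 33.4 and 32.3 CPM in knockdown against 26.2, 26.3 and 24.2 CPM in control. The groups were well apart, with a log2 fold change of 0.40 ± 0.08 (SE; edgeR adjusted p = 0.00708), and the adjusted p was 0.0526 without knockdown replicate 1. Of the 31-base words in its transcript, 56.4% also occur in AC068234.1, a protein-coding gene annotated on the same strand that starts within ITGB3 and runs past its end, and 15 counts were assigned to AC068234.1 in knockdown replicate 1 and none in the other 5 libraries.

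ITGAV (ENSG00000138448.11, chromosome 2, 186590065 to 186680901, plus strand), the alpha chain that binds the RGD motif of vitronectin and latent TGF-beta, was the member with a value below 0. It had 301, 293 and 309 CPM in knockdown, against 332, 318 and 320 CPM in control. Every knockdown library lay below every control library, with a log2 fold change of -0.10 ± 0.04 (SE; edgeR adjusted p = 0.249). ITGB5 (ENSG00000082781.11, chromosome 3, 124761948 to 124901418, minus strand), the beta chain of the other vitronectin receptor, had 153, 167 and 153 CPM in knockdown, against 141, 145 and 143 CPM in control. Its groups did not overlap, and its log2 fold change was 0.14 ± 0.05 (SE; edgeR adjusted p = 0.150).

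**Figure D2:**
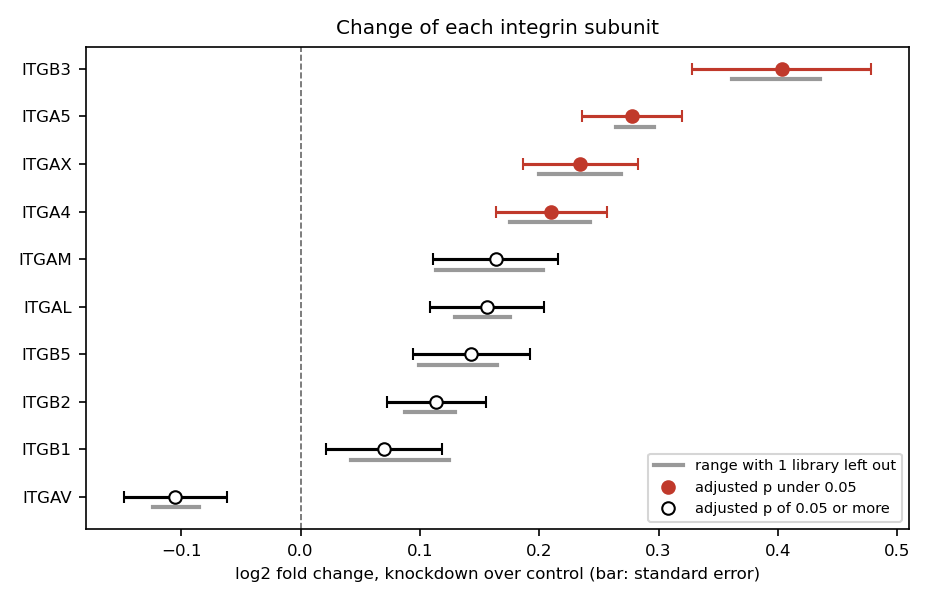
Log2 fold change of knockdown over control for each integrin subunit (x axis), with its standard error as a black or red bar and, in grey, the range over the 6 omissions of 1 library. ITGB3, ITGA5, ITGAX and ITGA4 (red) passed, from 0.40 to 0.21, and ITGAV lay at -0.10, the only point left of 0.

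Reads of ITGB3 are the least certain to assign, and the other members shared less. The share of 31-base words found in transcripts of any other gene was 15.9% in ITGB1, mostly with the processed pseudogene AC022149.1, 9.86% in ITGAL, 6.85% in ITGAX, 6.07% in ITGB2, 2.61% in ITGAV, 1.93% in ITGAM, 0.476% in ITGA5 and 0 in ITGA4 and ITGB5. ITGAX shared 159 of its 4673 words with ITGAD and 53 with ITGAM, its neighbours and relatives on chromosome 16. ITGAD had only 0.870 ± 0.185 CPM in knockdown and 0.793 ± 0.154 CPM in control (SD, n = 3 each). The words that ITGB2 shared were those of ITGB2-AS1 on the opposite strand, which had 14.6 ± 1.97 CPM in knockdown and 11.6 ± 1.74 CPM in control (SD, n = 3 each; log2 fold change 0.33, edgeR adjusted p = 0.214). The sources do not say whether counting used strand. All members but ITGA4 and ITGAM lie over an annotated gene on the opposite strand, and without strand, reads from words that both transcripts hold cannot be told apart. ITGB5 shared no such word with ITGB5-AS1.

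Per kilobase of the principal transcript in GENCODE 29, the order of the levels in the control libraries was ITGB2, ITGB1, ITGA5, ITGA4, ITGAX, ITGAV, ITGAM, ITGB5, ITGAL and ITGB3. ITGB2 was far above the others, at 1144 ± 36.0 CPM per kilobase in knockdown and 1057 ± 4.44 in control (SD, n = 3 each). Among the members, ITGB1 came next in control, with 112 ± 1.31 CPM per kilobase in knockdown and 107 ± 6.96 in control. ITGB3 came last, with 8.47 ± 0.452 in knockdown and 6.39 ± 0.301 in control. ITGB7, a beta chain outside the members that also pairs with ITGA4, was above ITGB1, at 192 ± 12.3 in knockdown and 175 ± 6.63 in control. In the control libraries no member's range overlapped that of the next. In the knockdown libraries the ranges of ITGA5 and ITGB1 overlapped, as did those of ITGA4 and ITGAX and those of ITGAM and ITGAV. ITGA5 averaged 115 ± 1.93 CPM per kilobase in knockdown and 94.5 ± 2.04 in control, so its mean was above that of ITGB1 in knockdown and below it in control. A single transcript length stands for each gene, so these orders rest on that choice.

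Ratios of chains that pair with each other were compared within each library, where library scaling cancels. In all, 15 such ratios and shares were tested with an exact two-sided permutation test, which cannot go below p = 0.1 with 3 against 3 libraries, and the smallest adjusted p was 0.167. The groups were separate in 7 of 8 log2 ratios and in 2 of 7 shares. These are not independent, since ITGB1, ITGB2 and ITGAV each enter several, and the same count over other gene pairs was not made. The largest shift was that of ITGB3 over ITGAV, at -2.25, -2.32 and -2.44 in knockdown, against -2.85, -2.78 and -2.91 in control (difference of means 0.51 on the log2 scale, exact p = 0.1). ITGB5 over ITGAV was also higher in all 3 knockdown libraries, by 0.25 (exact p = 0.1).

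In the ITGB1 group, ITGA5 over ITGB1 was -0.01, 0.07 and 0.01 on the log2 scale in knockdown, against -0.29, -0.17 and -0.09 in control, a difference of 0.21 with no overlap (exact p = 0.1). ITGAV over ITGB1 went the other way, by -0.18 on the log2 scale and again without overlap (exact p = 0.1). ITGA4 over ITGB1 differed by 0.14, with control replicate 3 just below the lowest knockdown library (exact p = 0.1), and by 0.07 without control replicate 1. The ratio of ITGA4 to ITGB7 was not taken. In the leukocyte group, ITGAX over ITGB2 differed by 0.12 and ITGAL over ITGB2 by 0.04, both without overlap (exact p = 0.1 each), though the ITGAL ratios of the groups nearly met, while ITGAM over ITGB2 overlapped (difference 0.05, exact p = 0.5). Leaving out control replicate 1 made that last difference 0.0027, while it was 0.0271 when knockdown replicate 3 was omitted and 0.0880 when control replicate 3 was.

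ITGAX made up 45.9%, 46.8% and 46.9% of the ITGB2-binding alpha chains, per kilobase, in the knockdown libraries, against 45.4%, 45.4% and 45.0% in the control libraries (exact p = 0.1). The other shares of that group overlapped, with ITGAM at 34.1% ± 0.397 in knockdown and 34.8% ± 0.659 in control, ITGAL at 19.2% ± 0.628 in knockdown and 19.7% ± 0.509 in control, and ITGAD below 1% throughout (SD, n = 3 each). Of the summed level of ITGB1, ITGB3 and ITGB5, per kilobase, ITGB3 made up 5.70%, 5.31% and 5.17% in knockdown, against 4.26%, 4.59% and 4.28% in control (exact p = 0.1). This sum leaves out ITGB6 and ITGB8, which also pair with ITGAV. The shares of ITGB1 and ITGB5 overlapped between the groups (exact p = 0.2 and 0.6).

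**Figure D3:**
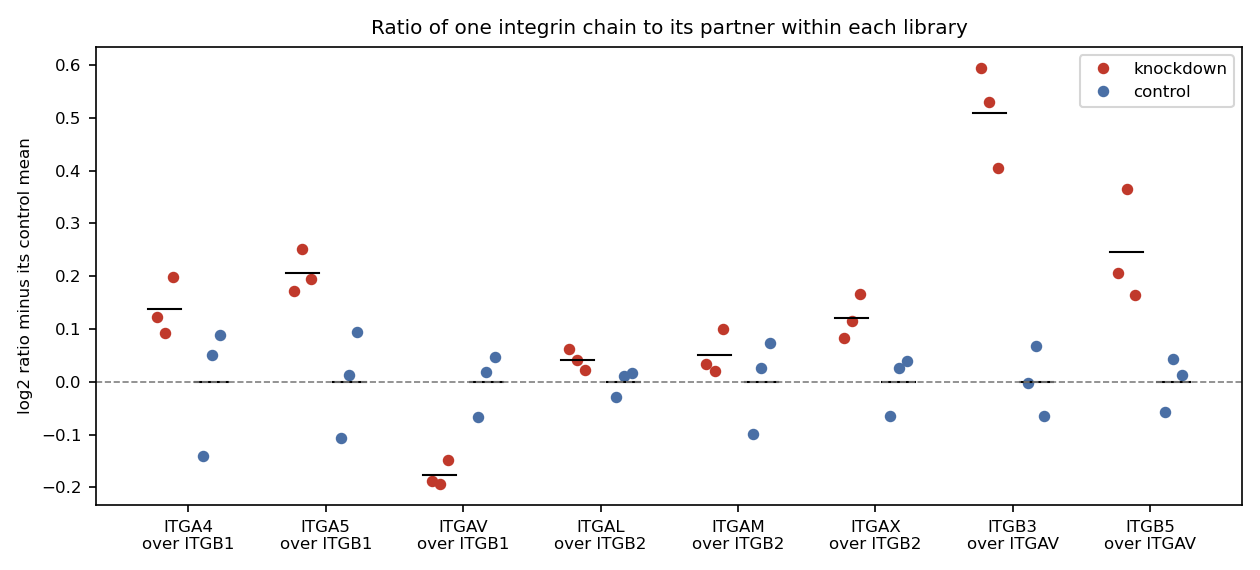
Log2 ratio of each chain to its partner within a library, minus the mean of the control libraries (y axis), for 8 pairs in the knockdown (red) and control (blue) libraries, with bars at the group means. ITGB3 over ITGAV had the largest difference, 0.51, and ITGAV over ITGB1 was the pair that lay below 0, at -0.18.

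The other integrin subunits did not pass. Of 16 further alpha and beta chains, 14 were in the table and 11 were abundant enough to test. None passed in edgeR, DESeq2 or limma-voom, and 2 had an unadjusted p under 0.05 in edgeR, ITGB7 and ITGA3. ITGB7, which pairs with ITGA4 as a gut-homing receptor, had 550 ± 35.3 CPM in knockdown and 501 ± 19.0 CPM in control (SD, n = 3 each; log2 fold change 0.14, edgeR adjusted p = 0.197), with every knockdown library above every control library. ITGA3, a laminin receptor chain, had a log2 fold change of 0.22 (edgeR adjusted p = 0.272), ITGA6, another laminin receptor chain, of -0.03, ITGA1, a collagen receptor chain, of 0.00 and ITGB8, an ITGAV partner, of -0.17. For ITGB8 every knockdown library lay below every control library (edgeR adjusted p = 0.421). ITGA2, ITGA7, ITGA9, ITGA11, ITGAD and ITGAE had less than 8 CPM in both groups, and ITGA10, ITGB4 and ITGB6 were too low to test. The median of the 11 was -0.02.

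Of the 130 tested genes of 7 lists around the integrins (these other subunits, ligands, activators, inhibitors, signalling, traffic and lateral partners), 2 rose and 4 fell, where 1.22% of all genes rose and 1.61% fell. The count that rose was near the background, and the count that fell was somewhat above it, on few genes. Of the 30 tested integrin ligands and counter-receptors, 2 fell and none rose (median log2 fold change -0.03). In DESeq2 and limma-voom 1 rose. At an unadjusted p under 0.05 in edgeR, which 6.89% of all genes passed as higher and 8.21% as lower, 6 were above 0 and 3 below. The largest log2 fold change of the list was that of TNC, 1.24, which did not pass (edgeR adjusted p = 0.0511). Its level was low, 2.18 ± 0.270 CPM in knockdown and 0.921 ± 0.352 CPM in control (SD, n = 3 each). THBS1, thrombospondin-1, a matrix protein that binds ITGAV with ITGB3, fell to 30.2 ± 2.00 CPM in knockdown, against 45.8 ± 4.64 CPM in control (SD, n = 3 each; edgeR adjusted p = 0.000589). TGM2, a transglutaminase that bridges fibronectin and integrins at the cell surface, had a log2 fold change of -0.18 (edgeR adjusted p = 0.0464), and its adjusted p was 0.0502 with RLE factors, 0.0584 with upper-quartile factors and 0.115 to 0.262 when control replicate 2 or a knockdown replicate was left out. Only 1 ligand passed in each of those 4 omissions, against 5 without control replicate 1 and 4 without control replicate 3. FN1, fibronectin, the ligand of ITGA5 with ITGB1, had 1653 ± 37.2 CPM in knockdown and 1647 ± 69.6 CPM in control (log2 fold change 0.00, edgeR adjusted p = 0.976).

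Of 26 tested genes of integrin activation and linkage to actin, none passed in edgeR, DESeq2 or limma-voom, and the median was -0.00. At an unadjusted p under 0.05, which 6.89% of all genes passed as higher and 8.21% as lower, 4 were above 0 and 2 below. The 3 with the most counts were talin (TLN1, log2 fold change 0.10), the adaptor LIMS1 (-0.06) and the exchange factor RAPGEF1 (-0.02). Of 7 tested genes listed as integrin inhibitors, none passed in any of these tools, and 1 had an unadjusted p under 0.05 (FLNA, filamin A, at -0.27). SLC3A2 and DOK2, with the most counts, had log2 fold changes of -0.03 and -0.09. SLC3A2, the CD98 heavy chain, binds integrin beta tails and promotes their signalling, so this list is not made of inhibitors alone. Of 27 tested signalling genes, 1 rose and none fell, with a median of 0.05. CRK, an adaptor that acts downstream of integrins at adhesions, rose to 66.8 ± 2.82 CPM in knockdown, against 54.6 ± 0.313 CPM in control (SD, n = 3 each; log2 fold change 0.29, edgeR adjusted p = 0.00911), and its adjusted p was 0.0724 without knockdown replicate 1 and 0.0563 without control replicate 2. The abundant members RHOA and LYN had log2 fold changes of -0.06 and 0.09. No signalling gene passed as lower in DESeq2 or limma-voom. At an unadjusted p under 0.05 in edgeR there were 6 above 0 and 2 below, where 6.89% of all genes passed as higher and 8.21% as lower.

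Of 15 tested genes of integrin traffic, 1 rose and 1 fell, with a median of 0.02, where 1.22% of all genes rose and 1.61% fell. An unadjusted edgeR p under 0.05 was reached by 3 above 0 and 1 below, against 6.89% higher and 8.21% lower over all genes. ARF6, a small GTPase of endosomal recycling, fell to 122.9 ± 3.23 CPM in knockdown, against 157 ± 5.09 CPM in control (SD, n = 3 each; log2 fold change -0.36, edgeR adjusted p = 0.000554). RAB21, a small GTPase that binds integrin alpha tails on endosomes, rose to 84.3 ± 3.77 CPM in knockdown, against 71.8 ± 1.70 CPM in control (log2 fold change 0.23, edgeR adjusted p = 0.0289), but the adjusted p was 0.066 to 0.164 when control replicate 2 or a knockdown replicate was left out. CLTC, clathrin heavy chain, had a log2 fold change of 0.02. Of 14 tested tetraspanins and lateral partners, 1 fell and none rose, with a median of 0.01. None rose in DESeq2 or limma-voom. At an unadjusted p under 0.05, which 6.89% of all genes passed as higher and 8.21% as lower, 2 were above 0 and 3 below. BSG, basigin, a membrane glycoprotein that associates with ITGB1 receptors, had a log2 fold change of -0.34 (edgeR adjusted p = 0.000511), while the tetraspanins CD63 and CD81 had -0.03 and 0.10. Without control replicate 1 the list had 2 genes past the threshold.

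**Figure D4:**
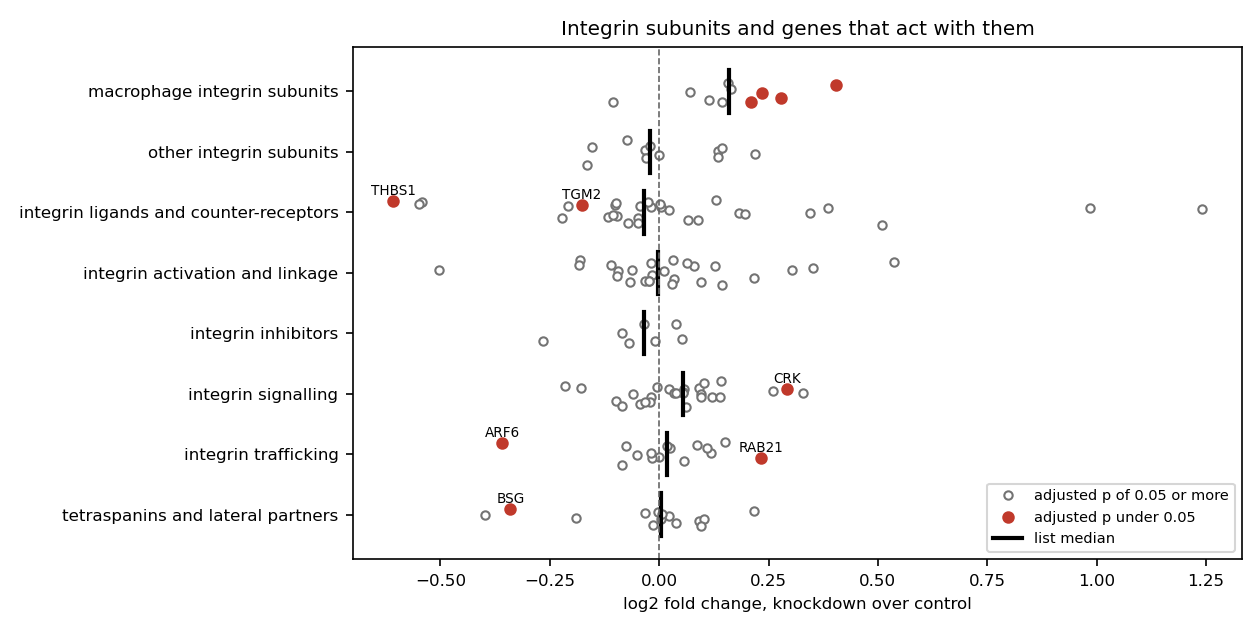
Log2 fold change of knockdown over control (x axis) for each tested gene of the integrin subunits and of 7 lists of genes that act with them, with genes past an adjusted p of 0.05 in red and the list median as a black bar. The median of the 10 integrin subunits was 0.16 and those of the other lists ran from -0.03 to 0.05.

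Of 16 macrophage markers, all were tested, and the summed level of the list ran from 5459 to 5672 CPM in knockdown and from 5456 to 5837 CPM in control. The highest was CSF1R, with 1719 ± 27.5 CPM in knockdown and 1744 ± 47.5 CPM in control, and the lowest was MRC1, with 2.43 ± 0.686 CPM in knockdown and 1.76 ± 0.577 CPM in control (SD, n = 3 each). CD14 (log2 fold change 0.34) and CD163 (0.40) rose and LYZ (-0.40) fell (edgeR adjusted p = 0.003, 0.0127 and 0.000928). Over all genes tested, 1.22% rose and 1.61% fell. CD163 had an adjusted p of 0.0535, 0.119 and 0.0796 without knockdown replicate 1, knockdown replicate 2 or control replicate 2. Of the 16 macrophage markers, 5 had a log2 fold change above 0 and 11 below, with a median of -0.03. Of all genes tested, 49.4% were above 0. Markers of undifferentiated myeloid cells, 7 in all, summed to 78.8 to 85.6 CPM in knockdown and 87.5 to 95.6 CPM in control. All knockdown libraries lay below all control libraries in this sum, as they did in 10.4% of all single genes tested. None of the 6 tested markers passed in edgeR, DESeq2 or limma-voom, while KIT was under 1 CPM. AZU1, the highest of these markers, was the only 1 with an unadjusted p under 0.05 in edgeR. Of 7 T cell markers, 2 were analysed. CD4, which macrophages also express, had a log2 fold change of -0.12, and TRAC had 7.55 ± 0.437 CPM in knockdown and 5.06 ± 0.551 CPM in control (edgeR adjusted p = 0.0409), a call lost in 5 of the 6 omissions of 1 library (adjusted p from 0.0807 to 0.175). The platelet and megakaryocyte markers, relevant to ITGB3, summed to 14.2 to 15.7 CPM in knockdown and 14.9 to 15.6 CPM in control, nearly all of it TREML1, with GP1BA and PPBP under 1 CPM. The B cell markers summed to 5.99 to 7.61 CPM in knockdown and 5.86 to 6.62 CPM in control, mostly PAX5, with CD79A lowest, and the fibroblast and endothelial markers to 3.89 to 5.26 CPM in knockdown and 3.43 to 5.29 CPM in control, with COL1A1 highest and COL3A1 lowest. The part of any of these markers in the integrin values was not tested.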

How the data were processed

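Polyadenylated RNA of 3 knockdown and 3 control libraries, grouped by sample title, was analysed. The table deposited by the authors holds expected counts for each gene symbol, 100% of them whole, with row sums of 10 or more. Salmon 0.11.2, DESeq2 and hg38 are named, without roles, per the submitters' processing notes. No source used here says how the estimates became whole.

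Counts were used as deposited and tested over all genes by the quasi-likelihood test of edgeR 4.0.16 (filterByExpr, TMM, group only, two-sided, Benjamini-Hochberg, threshold 0.05). Standard errors are approximate, the size of the log2 fold change over the root of F. Other tools were limma 3.58.1, DESeq2 1.42.0, R 4.3.3 and, under Python 3.11.15, scipy 1.17.1 for exact permutation tests, pandas 2.3.3, numpy 2.4.6 and matplotlib 3.10.9. Positions and transcript lengths (the longest principal transcript) came from GENCODE 29. The fit was tested on simulated data first.

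The members and the 13 other gene lists, 204 entries, were chosen with earlier results of these data known. From each of the 7 lists of integrin-related genes the text names genes past the threshold and, up to 3, the most abundant, with every further integrin subunit in the table, while marker lists are given by sums and counts. FLNA, TNC, AC068234.1, ITGB2-AS1 and the named marker genes were chosen after their values were seen. A gene that this rule would name is not reported here. CCN2 was read under its older symbol. Libraries of a group were no duplicates (chi-square per degree of freedom 1.90 to 6.79). A floor of 3 counts came to 0.21 to 0.29 CPM. The labels do not say whether libraries with the same replicate number belong together, and the main fit did not pair them.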

Additional observations from a re-analysis of the deposited data

How the results depend on the processing

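The count of members that rose was 4 in edgeR, in DESeq2, in limma-voom, with RLE or upper-quartile factors, with no filter, with at least 1 CPM in 3 libraries and with the replicate block, and none fell under any of these. At an adjusted p under 0.01 it was 2 (ITGA5 and ITGB3), with 56 genes higher and 94 lower over all genes. With 1 library left out it ran from 2 to 5, that of all genes higher from 55 to 214 and that of all genes lower from 84 to 328, lowest without knockdown replicate 2 and highest without control replicate 1, and with 55 to 80 higher and 84 to 114 lower without control replicate 2 or a knockdown replicate. The 7 lists together had 2 genes higher and 4 lower, 1 higher at an adjusted p under 0.01, 3 higher in DESeq2, and with 1 library left out 0 to 4 higher and 3 to 6 lower. The cause of these shifts was not tested. With the replicate block they had 3 higher and 5 lower, and all genes 200 higher and 288 lower. The labels state no pairing by number. Same-number correlations of deviations from the group means were weak, 0.046 to 0.1, but all 6 libraries correlated best with their own number. That is a hint of pairing from the data and not from the design. Of 140 values of single members under the alternatives, 130 kept direction and call, 9 lost and 1 gained the call, and none changed sign. Leaving out a library turned 2 small differences in share round, that of ITGB5 (-0.1355 to 0.9503 percentage points) and that of ITGAD (-0.0199 to 0.0158). Undivided counts turned none.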
